A study of Mus musculus with 12 samples.

Results

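The mammospheres of wild-type (WT) mice aged 12 months were compared with those of WT mice aged 2 months. These are 6 of the 12 RNA sequencing libraries of the series, 3 at each age, chosen by genotype and age alone. Of the 23406 genes in the table, the 13961 that averaged 0.5 CPM (reads scaled to a common library size) or more over the 12 libraries were compared. Every library came from C57BL/6J mice and from mammospheres at passage 2, and WT mice carry intact Shc1. The other 6 libraries, 3 at 2 months and 3 at 12 months, came from mice with a Shc1p66 knock-out (KO). These mice lack p66Shc, the long isoform of the Shc1 gene. Their libraries serve here to test whether an age change differed between genotypes. In the main fit they also enter the 0.5 CPM filter and the shared spread behind every SE and p-value. The labels do not say whether each library came from its own mouse and culture, so p-values measure the spread between these libraries, which may be technical. Spheres are selected cultures, so the values describe what grew from each age and not the gland itself.

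Mammospheres are floating clusters that grow when dissociated mammary cells are cultured without attachment, and serial passage is used to select cells that can start new spheres. The mammary ductal epithelium has an inner luminal layer, joined by tight junctions and desmosomes and able to pump ions and make milk, and an outer basal layer resting on a basement membrane. Fibroblasts, blood vessels, mast cells, macrophages, fat and nerve surround it in the gland, and the thin skeletal muscle of the skin lies close by. The luminal programme is held by transcription factors such as Elf5 and Gata3, and epithelial state more broadly by grainyhead-like and Ovo-like factors and by the splicing factors Esrp1 and Esrp2.

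The 6 WT libraries held 31845169 to 58264990 reads in genes, so that 3 reads stood for 0.0477 to 0.0859 CPM, and replicates of an age correlated at 0.991 to 0.998 across genes. On the first principal component, with 90.5% of the variance among WT libraries, the ages separated. Replicate 1 of the 2-month group stood apart from the other 2 libraries of its age on the next component, with a score of 21.1 against -15.8 and -5.84. In that library 965 genes (6.91% of those tested) lay more than 0.5 log2 from the mean of the other 2, and 895 of them were lower; the other 5 WT libraries had 0.329% to 3.32% of genes so far off. Counts of list members that its omission moved by over 1.5 times are also given without it. Of the markers of the labelled tissue, Epcam, Krt8, Krt18, Krt5, Krt14 and Cdh1 were all read in every WT library. At this depth a read is easily had, so this does not establish epithelial identity at either age. Epcam, Krt18 and Cdh1 were each far higher at 12 months, with values given below. Transcripts of fibroblasts were plentiful in the same libraries, with Dcn at 3270 to 3457 CPM at 2 months and 1512 to 1827 at 12 months. Shc1, whose reads from all isoforms are summed, fell from 266, 311 and 310 CPM to 220, 209 and 203.

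With age 8091 genes (58% of those tested) changed at an adjusted p under 0.05 in limma, 3120 higher (22.3%) and 4971 lower (35.6%). Any count of list members below is to be read against these shares. Rises were larger than falls: 186 genes rose by more than 3 on the log2 scale and 2 genes, Myh3 and Agtr2, fell by as much, while 2677 of the falls were of at most 0.5. Beyond a log2 change of 1 there were 989 rises (7.08%) and 738 falls (5.29%). The split of calls into rises and falls depended on the scaling. The deposited factors of the 6 WT libraries differed from those of a trimmed-mean (TMM) run over these 6 by up to 0.0943 on the log2 scale, and from one over all 12 by up to 0.0374. A gap shared by all 6 libraries leaves the age change as it is, and the shared part was not separated in these values. Between the ages, the shift from the deposited factors to those of the run over 12 was 0.0625. Rises made up 38.6% of calls as deposited, 46.4% after TMM scaling over all 12 libraries, 47.8% with median-of-ratios factors, 47.7% in DESeq2 and 50.9% in edgeR on recovered reads. The share of genes called in either direction was 55.3%, 55%, 55.5% and 54.8% in these fits, in that order. Common scaling raised the WT age change on the log2 scale by a median of 0.061 over genes, with 0.005 to 0.063 for single ones; the median change of all genes was -0.08 as deposited and -0.02 with it. For 22 genes the mean was at least 5 CPM at 12 months and under 0.5 CPM at 2 months. They include the immunoglobulin transporter gene Pigr, the mucin gene Muc15, the keratin gene Krt23 and the calcium channel gene Trpv6. The aldehyde dehydrogenase gene Aldh3a1 is also among them, and no gene met the opposite condition. These 22 genes passed the filter through their 12-month level and could hardly have been called lower. Scnn1b, Pigr, Muc15, Barx2, Cidea and Cxcl17 are also list members, and the counts of their lists may lean to rises for this reason. Listed genes under 0.5 CPM at 2 months that miss this rule, such as Rnf43, share the limit.

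**Figure D1:**
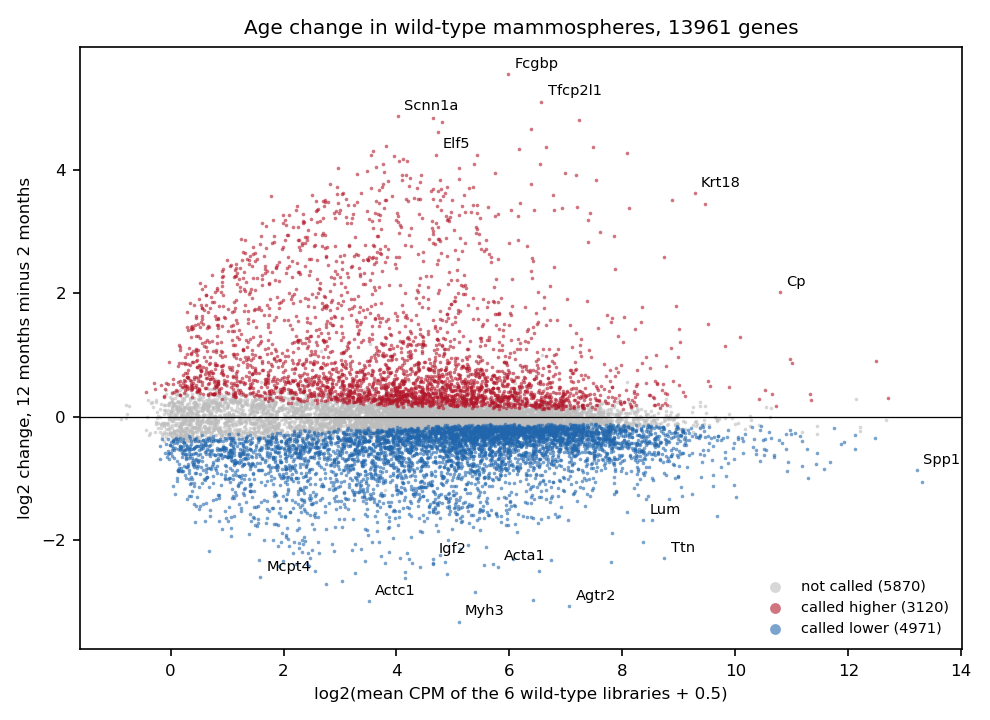
Each point is a gene, placed by its mean level in the 6 WT libraries (horizontal, log2 of CPM plus 0.5) and its log2 change from 2 to 12 months (vertical); red points were called higher (3120), blue lower (4971) and grey not called. Rises reach above 5, as for Fcgbp and Tfcp2l1, while the deepest falls, of the muscle gene Myh3 and the receptor gene Agtr2, end near -3.

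Epithelial transcription regulators rose with age almost as a block. Of 28 tested members of this list 26 rose and 0 fell, with a median log2 change of 2.36, or 3.48 in edgeR, since log2 of CPM plus 0.5 understates the change of genes with few reads. The list summed to 191.4 to 208 CPM in the 2-month libraries and 1436 to 1554 in the 12-month libraries. Of the 28 tested members 26 had no overlap between ages, against 62.3% of all tested genes. In bulk samples such as these, a changed number of cells of a type and a changed amount of RNA per cell cannot be told apart. This limit holds for rises and falls alike, in this list and in those below. The 2 exceptions were Hes1, a Notch target (21.1, 20.9 and 21.1 CPM against 20.7, 21.3 and 17.6), and Esr1, the oestrogen receptor (1.23, 1.17 and 1.64 CPM against 1.67, 1.49 and 1.40).

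Elf5, a driver of the alveolar luminal fate, was read at 2.23, 1.99 and 2.1 CPM at 2 months and at 48.7, 49.2 and 49.1 CPM at 12 months. The lowest 12-month library was thus far above the highest 2-month one (log2 4.25 ± 0.12, SE, n = 3 against 3, adjusted p = 6.87e-12). Grainyhead-like factors bind the enhancers of epithelial genes. Of these, Grhl2 stood at 3.8, 3.45 and 3.11 CPM in young and at 38.7, 37.7 and 37.5 in older spheres, and Grhl1 moved from 0.441, 0.697 and 0.589 CPM to 11.6, 11.4 and 12.4. Esrp1, which directs epithelial splicing, rose from 5.17, 5.09 and 5.01 CPM to 62, 68.3 and 70.6, and Esrp2 rose as well (log2 3.28 ± 0.11). Gata3, required for luminal identity, went from 2.06, 2.5 and 2.15 CPM to 11.5, 12.1 and 11.2 (2.15 ± 0.12). The progesterone receptor gene Pgr rose by less, from 1.18, 1.29 and 1.47 CPM to 3.61, 3.54 and 3.52 (1.16 ± 0.14), and its partner in hormone sensing, Esr1, did not pass (0.14 ± 0.16, adjusted p = 0.487). The basal factor Trp63, named after its value was seen, also rose (1.78 ± 0.23). A single gene does not stand for the basal layer, and the basal stem cell marker Procr did not pass.

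Sox10, a transcription factor of neural crest cells and of mammary progenitors, is in this list and in that of Schwann cell genes. It was read at 2.31, 4.29 and 2.88 CPM at 2 months and at 49.7, 52 and 49.1 at 12 months (3.83 ± 0.15). Among 13 tested Schwann and neural genes 4 rose and 6 fell; the other risers were Mbp (2.25 ± 0.08), Erbb3 and L1cam (1.40), and the list summed to 381.8 to 416.9 CPM and then to 456.2 to 469.7. Their part in the rise of Sox10 was not tested.

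Tight junction, desmosome and adherens junction genes rose, while connexin genes split. All 19 tested tight junction genes rose, with a median of 3.25, and the list summed to 279.3 to 306 CPM at 2 months and 1891 to 1945 at 12 months. Claudins set which ions pass between cells, and Cldn3 went from 3.16, 7.08 and 5.51 CPM to 68.7, 75.2 and 70.3 (3.71 ± 0.21). Scaffold genes behind the claudins rose by similar amounts. Tjp3, which ties claudins to actin, was read at 0.956, 1.58 and 1.47 CPM and then at 28.8, 33.2 and 35.0 (4.17 ± 0.14). Cingulin, encoded by Cgn, was at 1.89, 1.97 and 1.85 CPM and then at 32.6, 35.0 and 36.6 (3.87 ± 0.09). Tjp1, which is made by many cell types, rose least among those named here, from 79.9, 68.5 and 70.9 CPM to 144, 153 and 141. Crb3, a polarity protein of the apical membrane, is a gene for which replicate 1 of the 2-month group stood low, at 0.613 CPM against 1.46 and 1.43; its rise passed with and without that library.

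Of 20 desmosome and adherens junction genes 18 rose and 0 fell (median 2.27). E-cadherin, encoded by Cdh1, went from 25.6, 25.2 and 24.1 CPM to 265, 264 and 276, and desmoplakin, the link from desmosomes to keratin filaments, from 18.6, 14.8 and 15.1 CPM to 187, 199 and 218 (Dsp, 3.60 ± 0.14). Perp, a desmosome protein that is also a p53 target, went from 14.8, 15.1 and 14.8 CPM to 254, 248 and 209 (3.94 ± 0.09). N-cadherin, which is not in the list and was looked up after the list's values were seen, fell from 61, 58.7 and 56.6 CPM to 41.7, 40.3 and 39.2 (Cdh2, log2 -0.54 ± 0.09). Connexins form gap junctions, and this list split: of 8 tested genes 4 rose and 2 fell. Gjc1 fell from 31.3, 29.7 and 28.6 CPM to 12.2, 10.6 and 12.5, and the fall of the widely expressed Gja1 was small (-0.19) and was lost under common scaling.

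Channel and pump genes of secretory epithelium followed, with 22 of 24 tested genes higher and 0 lower (median 2.75). Members that passed the filter only through their 12-month level, such as Scnn1b, could hardly have been called lower. The sodium channel subunit gene Scnn1b was read at 0.27, 0.41 and 0.294 CPM at 2 months and at 7.8, 7.5 and 8.53 at 12 months. The chloride channel gene Cftr went from 0.638, 0.533 and 0.505 CPM to 12.6, 11.3 and 10.5. The water pore gene Aqp5 went from 2.80, 3.08 and 2.90 CPM to 16.8, 17.1 and 15.7, and the sodium pump subunit gene Atp1b1 from 22.5, 21.8 and 23.8 to 108, 112 and 105. Each of these 4 genes had wide gaps between the ages and narrow spreads within them.

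Milk, mucin and secretory defence genes numbered 20 tested, of which 18 rose and 2 fell (median 2.59). The casein gene Csn3 rose from 37.9, 32.9 and 33.3 CPM to 119, 119 and 122, and Csn1s1, which codes for another casein, from 0.932, 0.595 and 0.61 CPM to 6.67, 6.32 and 7.33. Pigr, which carries antibodies into milk, was read at 0.368, 0.533 and 0.294 CPM and then at 13.6, 14.7 and 14.1. Btn1a1, a protein of the milk fat globule, was at 0.687, 0.615 and 0.736 CPM and then at 9.78, 9.47 and 8.07. The 2 falls were of Plin2, which coats lipid droplets (-0.35 ± 0.07), and Xdh, a partner of Btn1a1 in milk fat secretion (-0.32 ± 0.06). Csn2, Wap, Lalba and 5 other listed genes did not pass the filter on low values.

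**Figure D2:**
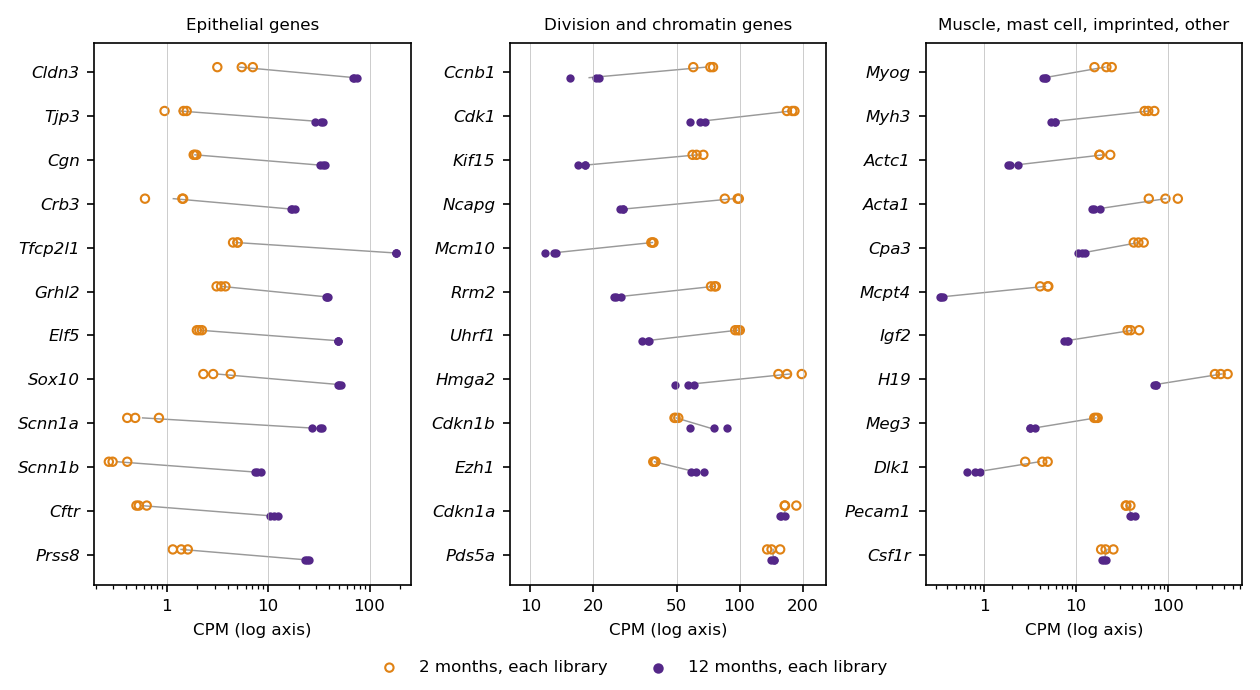
CPM (log axis) of 36 genes in each of the 3 libraries at 2 months (open circles) and at 12 months (filled circles), with lines joining the age means. Epithelial genes lie far to the right at 12 months, most division, muscle, mast cell and imprinted genes to the left, and Cdkn1a, Pds5a, Pecam1 and Csf1r overlap between ages.

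Cell-matrix genes did not move as a block, and members of a family moved in opposite directions. Of 20 integrin subunit genes 6 rose and 7 fell, near the shares of all tested genes (22.3% higher and 35.6% lower). The split is thus no trait of integrins. The risers included Itgb4, the integrin of hemidesmosomes (4.27, 6.26 and 4.71 CPM, then 39.1, 44 and 49.2; log2 3.01 ± 0.14), and the laminin receptor subunit gene Itga3 (12.1, 14.5 and 13.3 CPM, then 80.0, 86.2 and 90.5). They also included both epithelial activators of latent TGF-beta, Itgb8 (3.69 ± 0.10) and Itgb6 (1.76 ± 0.09). The falls were smaller: the fibronectin receptor gene Itga5 went from 405, 424 and 400 CPM to 244, 246 and 285 (-0.67 ± 0.07), and Itgb3 from 229, 243 and 231 to 158, 146 and 154 (-0.62 ± 0.06). Itgb1, the partner of most of them, did not pass (1565, 1321 and 1399 CPM against 1320, 1310 and 1267).

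Basement membrane genes split the same way, 7 of 15 higher and 6 lower. Laminin-332 anchors hemidesmosomes, and its chain genes Lamb3 (2.87 ± 0.10) and Lama3 (0.87 ± 0.11) rose, as did Lama5, from 8.44, 14.3 and 11.4 CPM to 111, 121 and 121 (3.34 ± 0.15). Lama2, the chain of muscle and nerve basement membranes, fell from 694, 654 and 654 CPM to 339, 323 and 355 (-0.98 ± 0.06). Among 29 collagen genes 9 rose and 15 fell as deposited, and 11 rose and 10 fell in edgeR. Col4a6, a chain of epithelial basement membrane, went from 5.3, 5.89 and 4.99 CPM to 55.8, 51.5 and 58.3, and the hemidesmosome collagen gene Col17a1 rose by 1.91 ± 0.13. The microfibril collagen genes Col6a1 (1312, 1655 and 1435 CPM, then 553, 590 and 625) and Col6a2 (log2 -1.33 ± 0.12) fell, as did Col3a1 (-0.42 ± 0.09).

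Matricellular and proteoglycan genes, largely products of mesenchymal cells, fell in 20 of 31 cases and rose in 6 (median -0.49), and the list summed to 50237 to 52278 CPM at 2 months and 32789 to 34509 at 12 months. Thbs2, an inhibitor of vessel growth, went from 13038, 14177 and 13792 CPM to 6829, 6223 and 6566 (-1.06 ± 0.08). Its relative Thbs1 did the reverse, from 1420, 1548 and 1404 CPM to 2684, 2614 and 2675 (0.87 ± 0.07), as did periostin, encoded by Postn (0.94 ± 0.09). Of 29 matrix proteases and inhibitors 21 fell and 5 rose (median -0.59). The plasminogen activator gene Plat fell from 458, 494 and 509 CPM to 194, 187 and 197, and Mmp9 from 8.56, 11.8 and 10.6 to 3.91, 3.56 and 3.55. The membrane-bound Mmp15, known from epithelium, rose from 2.75, 3.77 and 3.93 CPM to 42.7, 44.9 and 48.3 (3.54 ± 0.16). As a measured background to these falls, the fibroblast markers Col1a1 (-0.37), Col3a1, Dcn (-1.0), Pdgfra (-0.63) and Lum were all lower at 12 months, and their part in the falls was not tested.

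Ligands and receptors showed further splits within pathways, to be read beside the 22.3% of all tested genes that rose and the 35.6% that fell. A split near these shares, as in the growth factor list below, is no trait of that list. ErbB receptors pair with each other and bind EGF-like ligands, and of 14 tested family members 6 rose and 3 fell. Erbb3 went from 8.41, 11 and 7.95 CPM to 71.4, 71.4 and 81.2 (2.98 ± 0.10), its ligand gene Nrg2 rose by 1.97 ± 0.13, and the EGFR ligand genes Tgfa (2.16 ± 0.11) and Areg (1.11 ± 0.13) rose. Egfr itself fell from 824, 803 and 776 CPM to 536, 511 and 528 (-0.61 ± 0.05), and its ligand gene Btc from 37.3, 36.3 and 41.5 to 22.3, 22 and 19.2. The remaining fall, of the feedback inhibitor gene Errfi1 (-0.16), did not pass under common scaling.

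The Wnt list had 19 of 39 genes higher and 8 lower. Wnt5b (6.13, 7.1 and 6.5 CPM, then 56.2, 56.5 and 59.4) and Wnt7b (5.71, 7.92 and 7.72 CPM, then 46.8, 46.6 and 48.1) rose most among the ligands. Wnt4, the progesterone-induced ligand of the gland, also rose (2.24 ± 0.15). Among genes acting at the receptor, Rnf43, which removes Frizzled from the membrane, rose from 0.123, 0.431 and 0.231 CPM to 3.89, 3.87 and 4.87. The R-spondin receptor gene Lgr6 (2.50 ± 0.12) and the Frizzled gene Fzd6 (2.48 ± 0.09) rose as well. Wnt5a, close in sequence to Wnt5b, went the other way, from 73.6, 72.4 and 77.4 CPM to 36.6, 40.4 and 32.8 (-1.02 ± 0.07), and the Wnt inhibitor gene Dkk2 fell (-1.0 ± 0.16).

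Notch signals pass between touching cells. Of 23 Notch pathway genes 11 rose and 4 fell. The target gene Hey1 went from 4.02, 2.89 and 3.81 CPM to 24.8, 24.9 and 21.9 (2.59 ± 0.12), the ligand gene Dll1 rose by 2.21 ± 0.15 and Notch1 went from 35.6, 47.7 and 41.9 CPM to 76.8, 89.6 and 90.8 (1.04 ± 0.10). Lfng, which modifies Notch receptors, rose (1.62 ± 0.17). Notch2 fell from 311, 320 and 294 CPM to 198, 197 and 204 (-0.62 ± 0.06), and the nuclear partner gene Rbpj (-0.55) and the ligand gene Jag1 (-0.48) fell too. Growth factor genes divided into 8 higher and 8 lower of 24: the epithelial receptor gene Fgfr2 (2.17 ± 0.09) and the ligand gene Pdgfb (2.01 ± 0.12) rose, while Fgf10, a mesenchymal ligand of Fgfr2, fell from 7.58, 7.32 and 7.76 CPM to 2.78, 3.22 and 2.86 and the PDGF receptor gene Pdgfra fell by 0.63. In the Hedgehog list the co-receptor gene Gas1 fell from 85.3, 87.7 and 93.1 CPM to 33.5, 35.4 and 29.0, and the target and receptor gene Ptch1 rose by 0.86 ± 0.09. Of the genes in these paragraphs, Itgb1, Itgb3, Wnt5a, Dkk2, Notch2, Jag1, Rbpj, Pdgfra, Thbs1 and Postn were picked after their values were seen.

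**Figure D3:**
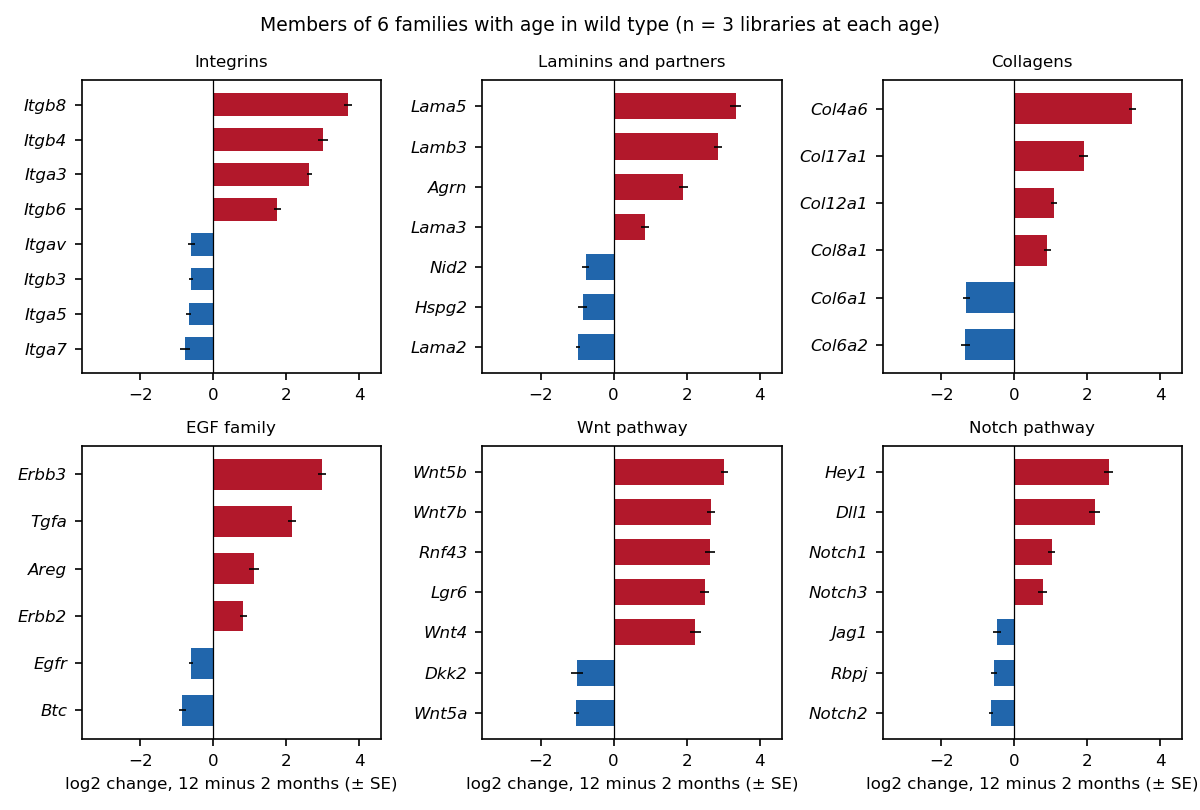
Log2 change from 2 to 12 months of named members of 6 families (bars, red called higher and blue called lower), with SE, n = 3 libraries at each age. Members were picked by hand to show both directions, so every panel holds rises and falls by that choice. The rises reach 3.69 for Itgb8 while the falls of non-collagen members end near -1.

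Cell division genes fell together, most of them by a like fold. All 41 tested kinetochore and centromere genes fell (median log2 change -1.41), as did 26 of 27 mitotic kinesin and spindle genes (median -1.45) and 27 of 30 cyclin, mitotic kinase and anaphase-promoting complex genes (median -1.43). Of 48 genes of replication origins and forks 45 fell and 0 rose (median -0.98). The proliferation marker Mki67 went from 448, 364 and 390 CPM to 136, 133 and 142 (-1.54 ± 0.12).

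Ccnb1, the B cyclin that drives entry into mitosis, went from 74.7, 60.1 and 72.5 CPM to 21.3, 20.5 and 15.5 (-1.83 ± 0.12, adjusted p = 1.88e-08), and Ccnb2 from 79.5, 77.9 and 84.4 to 29.3, 25.6 and 25.7 (-1.57 ± 0.10). Kif15, a spindle kinesin, fell from 67.1, 59.6 and 62.3 CPM to 18.3, 18.3 and 16.9. Kif23, needed to part the daughter cells, went from 58.8, 54.9 and 56.1 CPM to 19.7, 17.9 and 20.2 (-1.53 ± 0.10). In each of these genes every older library lay below every young one. Cdc20, which switches on the anaphase-promoting complex, was at 52.3, 62.2 and 60.4 CPM and then at 21.4, 21.8 and 20.6 (-1.43 ± 0.12). Ncapg, a condensin subunit that compacts chromosomes, fell from 99.2, 85.0 and 97.9 CPM to 27.7, 27.8 and 26.8 (-1.76 ± 0.09). Mcm5, part of the replicative helicase, fell from 106, 131 and 121 CPM to 52.5, 45.6 and 49.6 (-1.27 ± 0.09), and its loading factor gene Cdc6 from 22.6, 23 and 21.4 to 7.45, 6.8 and 7.84.

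Promoters of division genes are known for a cell cycle homology region (CHR) near the start site, often with CCAAT boxes upstream, in genes of mitosis, and for E2F sites in genes of replication. The windows of 5 such genes, 300 bases each, from 250 before to 50 after the start in RefSeq for GRCm38.p6, are shown as examples. They were picked by hand from the many genes that fell together and do not stand for all of them. Capitals mark every match of the CHR letters (TTTGAA or TTCGAA), of CCAAT and of the E2F letters (TTTCCCGC or TTTGGCGC) on either strand, written 5′ to 3′ along the gene.
Ccnb2, chr9:70421505-70421804, minus strand: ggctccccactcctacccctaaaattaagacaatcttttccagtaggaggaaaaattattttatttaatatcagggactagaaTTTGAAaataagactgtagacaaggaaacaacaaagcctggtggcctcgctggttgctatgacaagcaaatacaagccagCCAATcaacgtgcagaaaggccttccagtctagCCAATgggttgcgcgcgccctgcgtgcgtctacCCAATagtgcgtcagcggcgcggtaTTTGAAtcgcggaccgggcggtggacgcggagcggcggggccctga
Cdc20, chr4:118437294-118437593, minus strand: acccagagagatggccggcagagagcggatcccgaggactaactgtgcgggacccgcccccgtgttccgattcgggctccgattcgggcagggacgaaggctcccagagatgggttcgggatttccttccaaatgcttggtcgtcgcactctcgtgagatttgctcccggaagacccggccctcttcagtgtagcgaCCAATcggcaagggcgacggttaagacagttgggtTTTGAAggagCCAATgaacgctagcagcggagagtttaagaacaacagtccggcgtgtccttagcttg
Kif23, chr9:61946750-61947049, minus strand: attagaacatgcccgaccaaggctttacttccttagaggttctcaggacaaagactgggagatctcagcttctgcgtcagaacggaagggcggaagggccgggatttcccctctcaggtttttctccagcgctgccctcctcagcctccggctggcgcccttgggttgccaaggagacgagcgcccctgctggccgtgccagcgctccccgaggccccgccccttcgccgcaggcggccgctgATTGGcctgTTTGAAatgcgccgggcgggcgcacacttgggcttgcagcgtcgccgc
Ncapg, chr5:45669675-45669974, plus strand: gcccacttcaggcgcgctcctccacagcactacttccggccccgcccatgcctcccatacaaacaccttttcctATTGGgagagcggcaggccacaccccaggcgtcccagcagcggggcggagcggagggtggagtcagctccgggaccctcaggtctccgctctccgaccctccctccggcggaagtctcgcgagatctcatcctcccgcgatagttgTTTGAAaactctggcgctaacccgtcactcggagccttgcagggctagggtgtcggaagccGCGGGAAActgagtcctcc
Mcm5, chr8:75109259-75109558, plus strand: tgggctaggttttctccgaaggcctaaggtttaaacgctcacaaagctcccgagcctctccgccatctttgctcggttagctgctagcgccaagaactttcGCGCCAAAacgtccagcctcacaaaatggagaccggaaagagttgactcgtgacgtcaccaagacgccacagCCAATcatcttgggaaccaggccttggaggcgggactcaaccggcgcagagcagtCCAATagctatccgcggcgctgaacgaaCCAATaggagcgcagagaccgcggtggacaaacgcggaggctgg
Ccnb2, Cdc20 and Kif23 hold a CHR match and at least 1 CCAAT box, Ncapg a match of each of the 3 kinds, and Mcm5 an E2F match with 3 CCAAT boxes and no CHR letters. A match describes these letters only and is no measured site. Windows were at hand for 10245 of the 13961 tested genes (73.4%), and the CHR letters were in 13.6% of them, CCAAT in 38.2% and the E2F letters in 3.04%. Among mitotic kinesin and spindle genes the CHR letters were in 80% of 25 windows, among kinetochore genes in 52.9% of 34, and among replication genes in 17.9% of 39. For the cyclin, kinase and anaphase-promoting complex list the CHR share was 56.5% of 23 windows, and for condensin and cohesin genes 57.1% of 14. These lists thus also hold windows without the CHR letters. Outside the division lists the CHR letters were in 44.4% of 9 mast cell windows and 0% of 14 tight junction windows. For milk, mucin and secretory defence genes, a list that mostly rose, the share was 33.3% of 12. A raised share was thus not limited to division lists. The E2F letters were in 33.3% of the replication windows, 42.9% of the condensin and cohesin windows and 8% of the kinesin windows. Over all genes that fell by more than 1 log2, CHR letters were in 26.7% of 516 windows, and over those that rose by as much in 12.3% of 657. No test was made of these shares.

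Within the mitotic lists few genes did not fall, and the lists of regulators and of chromosome structure were less uniform. Numa1, which anchors spindle poles, rose from 100.1, 126 and 109 CPM to 135, 143 and 161 (0.39 ± 0.09), and Pttg1 (securin), Wee1 and Fzr1 did not pass. Rrm2b, the p53-induced ribonucleotide reductase subunit, rose by 0.37 ± 0.09 while the S-phase subunit gene Rrm2 fell. In the E2F and pocket protein list, where 10 of 17 fell and 3 rose, the repressors E2f8 (7.70, 7.28 and 7.36 CPM, then 2.02, 2.31 and 2.23) and E2f7 (-1.41 ± 0.10) fell most, and the pocket protein genes Rb1 (0.52 ± 0.10) and Rbl2 (0.28) rose. Of 21 condensin and cohesin genes 16 fell and 2 rose. Condensin genes fell (Ncapg2 -1.58, Smc2 -1.45) more than the cohesin core genes Smc3 (-0.48) and Smc1a (-0.43), and the cohesin release and loading genes Pds5a, Wapal and Nipbl did not pass. Of 13 D cyclin and CDK inhibitor genes 8 fell and 2 rose. Among the inhibitors Cdkn1c (34.4, 36.4 and 37.3 CPM, then 13.5, 14.3 and 12.5) and Cdkn2c (-1.12 ± 0.08) fell, Cdkn1b (p27) rose from 49.4, 48.9 and 50.9 CPM to 75.2, 86.6 and 57.9 (0.53 ± 0.11), and Cdkn1a (p21) overlapped between ages (164, 187 and 165 CPM against 165, 157 and 156). In the chromatin list 21 of 32 genes fell and 3 rose; Hmga2, an architectural protein of fetal and stem cells, went from 198, 153 and 169 CPM to 56.7, 60.8 and 49.1 (-1.63 ± 0.09), and of the Polycomb methylases Ezh2 fell (-0.58 ± 0.07) and Ezh1 rose (0.67 ± 0.06).

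By its median, the skeletal muscle list fell the most of the 52 lists. Of 46 tested members 44 fell, with a median log2 change of -2.12, and the list summed to 1860 to 2229 CPM at 2 months and 430.3 to 454.2 at 12 months. Myogenin, the switch to muscle differentiation, went from 15.8, 24.2 and 21.2 CPM to 4.32, 4.57 and 4.69 (Myog, -2.04 ± 0.21). Sarcomere genes followed, as Actc1, a striated muscle actin, from 17.8, 23.4 and 18 CPM to 2.35, 1.80 and 1.92 (-3.00 ± 0.18), and Myh8, the perinatal myosin, from 144, 171 and 137 CPM to 18.1, 18.1 and 19.8 (-2.97 ± 0.14). The giant protein titin, from Ttn, stood at 778, 718 and 637 CPM and then at 133, 148 and 153. Acta1 was low in replicate 1 of the young group, at 61.2 CPM against 126 and 92.7, and was 15.7, 17.9 and 14.9 CPM in the older group. The defining stem cell gene Pax7 had 0 to 4 reads in each WT library, and Myod1 had 19, 35 and 31 reads at 2 months and 14, 6 and 5 at 12 months, below the filter. The 2 that rose code for parts of the muscle endplate, Chrnb1, from 9.49, 8.22 and 8.35 CPM to 34.4, 34.0 and 35.6 (1.94 ± 0.08), and Rapsn, whose libraries overlapped (1.40, 3.63 and 1.85 CPM against 4.13, 3.49 and 4.87).

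Myogenic factors bind E-boxes, of which CAGCTG is a common form. The windows of the muscle creatine kinase gene Ckm, which fell from 9.93, 21.8 and 16.4 CPM to 2.14, 2.12 and 2.38, and of the fast light chain gene Myl1, which fell from 30.2, 31.4 and 28.6 CPM to 4.37, 4.35 and 4.61, each hold it once, in capitals.
Ckm, chr7:19410844-19411143, plus strand: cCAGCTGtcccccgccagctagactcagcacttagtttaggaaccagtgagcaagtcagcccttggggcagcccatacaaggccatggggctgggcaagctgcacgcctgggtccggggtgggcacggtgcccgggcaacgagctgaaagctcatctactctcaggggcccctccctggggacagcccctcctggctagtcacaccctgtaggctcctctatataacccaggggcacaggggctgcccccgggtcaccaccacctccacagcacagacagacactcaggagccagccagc
Myl1, chr1:66945007-66945306, minus strand: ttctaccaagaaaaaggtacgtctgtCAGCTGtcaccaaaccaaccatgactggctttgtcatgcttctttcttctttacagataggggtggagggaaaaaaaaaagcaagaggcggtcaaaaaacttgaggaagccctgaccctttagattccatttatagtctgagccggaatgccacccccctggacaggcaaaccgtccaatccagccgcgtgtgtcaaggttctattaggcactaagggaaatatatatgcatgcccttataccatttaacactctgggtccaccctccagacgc
CAGCTG, which reads alike on both strands, was in 41.7% of the 36 windows of the muscle list and in 15.3% of all windows. The CHR letters were in 2.78% of the muscle windows. This E-box was also in 45.5% of 11 windows of the smooth muscle and pericyte list, where 7 genes rose and 3 fell. It was in 40% of 10 windows of deoxynucleotide supply genes and 3.57% of 56 ribosomal protein windows. A high share was thus not limited to the skeletal muscle list. The letters searched for MEF2, a further muscle factor, were in 0% of the 36 muscle windows and 0.244% of all windows. These shares were not tested.

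Contractile genes shared by smooth muscle and the myoepithelium did not follow skeletal muscle, with 7 of 14 higher and 3 lower, or 5 lower without replicate 1 of the 2-month group. Acta2 rose from 30.6, 32.8 and 29.5 CPM to 90.6, 84.1 and 90.3 (1.5 ± 0.08) and Tagln from 8.90, 9.33 and 8.39 to 25.5, 22.7 and 28.2. Cnn1 was at 0, 0.164 and 0.063 CPM at 2 months, about the level of a few reads, and at 2.08, 1.97 and 1.89 at 12 months. Desmin, which skeletal muscle also makes, fell (Des, -1.83 ± 0.17).

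Markers of other cell types moved unevenly. Mast cell genes fell in 9 of 11 cases, and the list summed to 807 to 848.4 CPM at 2 months and 477.7 to 485 at 12 months. The mast cell protease genes Cpa3 (53.9, 47.2 and 42.1 CPM, then 10.3, 12.6 and 11.4) and Mcpt4 (4.98, 4.90 and 4.06 CPM, then 0.334, 0.361 and 0.343) fell most, and the histamine synthesis gene Hdc fell too (-1.54 ± 0.15). The single riser was Kit, a receptor of mast cells and of luminal progenitors, which also stands in the progenitor list. Of the other genes in that list, the luminal progenitor marker Aldh1a3 rose from 15.5, 16.2 and 15.7 CPM to 33.3, 33.7 and 34.4 and the basal stem cell marker Procr did not pass (-0.09 ± 0.10).

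Endothelial genes rose in 6 of 17 cases and fell in 1 as deposited, rose in 10 under common scaling, and fell in 2 without replicate 1 of the 2-month group; their sum was 197.8 to 231.4 CPM and then 237.6 to 249. Pecam1 overlapped between ages (35.0, 38.7 and 34.4 CPM against 39.3, 38.2 and 43.2), and its change of 0.16 as deposited did not pass but 0.22 under common scaling did. Flt4, the receptor of lymphatic growth factors, rose by 1.87 ± 0.11. Macrophage and leukocyte genes fell in 7 of 13 cases (4 in edgeR) and rose in 1, with a sum of 1502 to 1780 CPM and then 1197 to 1250. The scavenger receptor gene Cd163 went from 56.7, 58.7 and 44.0 CPM to 16.6, 16.3 and 18.1, Csf1r overlapped (20.8, 25.3 and 18.6 CPM against 19.2, 19.8 and 20.9), and Cd14, which epithelium can also make, rose by 2.14 ± 0.09. The T cell gene Cd3e had 0 reads in all 6 libraries, which allows up to 0.0477 to 0.0859 CPM; floors cover counting error only. Adipocyte genes fell in 5 of 8 cases, with Adipoq at 0.907 to 1.09 CPM and then 0.216 to 0.458. The part of these shifts in the other lists was not tested.

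**Figure D4:**
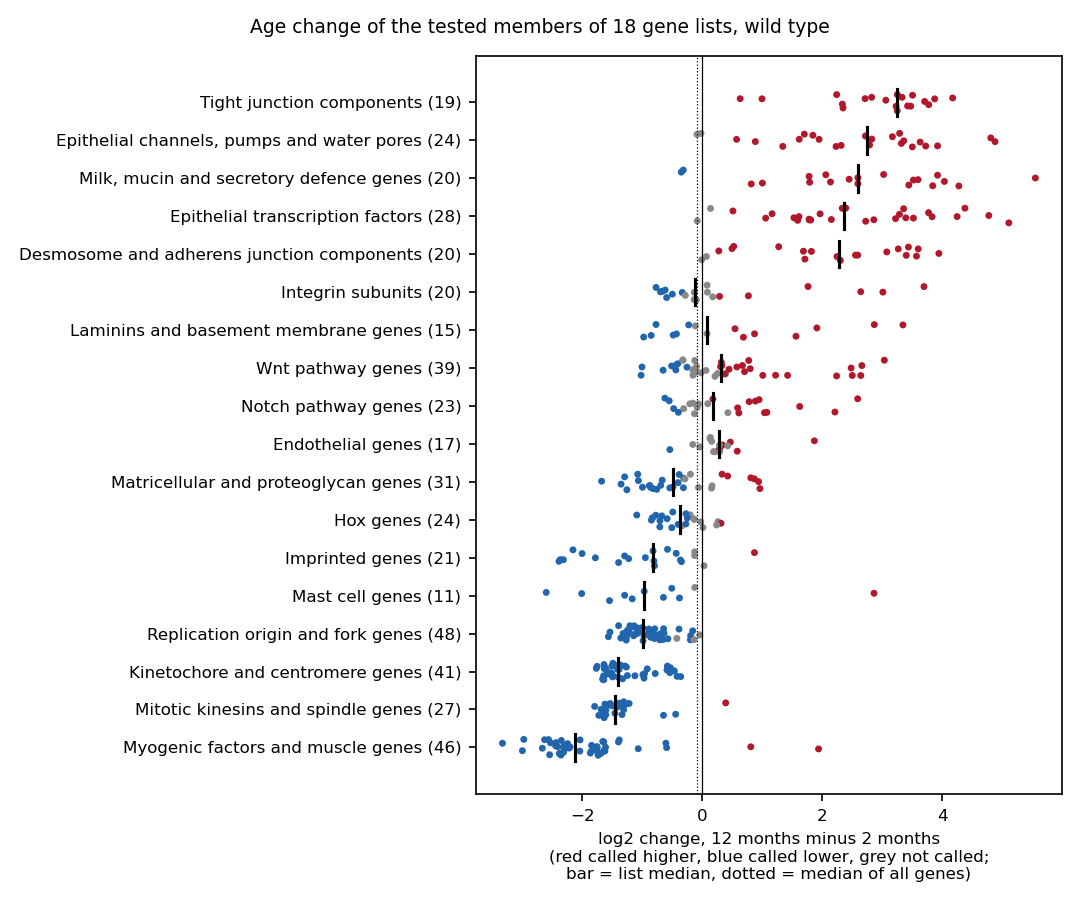
Log2 change from 2 to 12 months of each tested member of 18 gene lists (points; red called higher, blue called lower, grey not called), with list medians as bars, a dotted line at the median of all genes (-0.08) and the number tested in brackets. Junction, channel and secretory lists lie to the right with medians of 2.27 to 3.25, division and muscle lists to the left, and integrin, laminin, Wnt and Notch members on both sides.

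Imprinted genes, of which only the copy from a given parent is active, fell in 17 of 21 cases and rose in 1 (median -0.82). Several of them promote or restrain fetal growth and are known to be silenced after birth. The neighbouring genes Igf2 and H19 fell together: Igf2, a fetal growth factor, from 39.0, 48.1 and 36.1 CPM to 7.85, 8.18 and 7.38 (-2.31 ± 0.17), and H19, a non-coding RNA, from 319, 438 and 368 CPM to 72.9, 72.9 and 69.7 (-2.37 ± 0.17). On chromosome 12 the non-coding RNAs Meg3 (17.1, 15.7 and 16.3 CPM, then 3.61, 3.15 and 3.12), Rian (-2.39 ± 0.12) and Mirg (-2.0 ± 0.12) fell with their neighbour Dlk1 (-1.78 ± 0.17), an inhibitor of differentiation. Plagl1 (-1.23 ± 0.10), Peg3 (-0.95 ± 0.07) and Grb10 (-0.82 ± 0.04) fell by less, Slc22a18 rose by 0.87 ± 0.19, and Mest, Gnas and Kcnq1ot1 did not pass. Both Igf2 and Dlk1 are also made by growing muscle, whose list fell in the same libraries; the share of muscle in the imprinted falls was not tested.

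In the wider IGF list 11 of 18 genes fell and 5 rose. The RNA-binding protein gene Igf2bp3, a fetal and tumour gene, fell from 39.8, 36.9 and 34.0 CPM to 13.0, 12.4 and 11.3, the hormone gene Igf1 from 82.2, 64.9 and 68.9 to 38.3, 39.8 and 30.5, and Stc1, an inhibitor of an IGF-binding protein protease, fell as well (-1.95 ± 0.11). The binding protein gene Igfbp5 rose (0.96 ± 0.13) and the receptor gene Igf1r rose slightly (0.27 ± 0.05). Hox genes carry body position in mesenchyme and epithelium, and 15 of 24 fell while 1 rose (median -0.37). Hoxc4 went from 3.07, 2.97 and 3.34 CPM to 1.54, 1.40 and 0.773, and Hoxa5 fell by 0.85 on the log2 scale, while the rise of Hoxb9 (0.31 ± 0.12) was absent from the calls without replicate 1 of the 2-month group. Among non-coding RNAs Neat1, the scaffold of paraspeckles, rose from 130, 104 and 110 CPM to 332, 344 and 318 (1.53 ± 0.12), whereas its neighbour Malat1 overlapped between ages.

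TGF-beta and BMP genes gave 12 rises and 9 falls among 37. The BMP antagonist gene Grem1 fell by 1.33 on the log2 scale, the co-receptor gene Tgfbr3 from 412, 398 and 395 CPM to 237, 250 and 252, and Bmp2 from 11.5, 9.89 and 10.9 to 5.46, 5.92 and 5.90. The inhibitory genes Id4 (2.33), Smad6 (1.61) and Smad7 (0.92), and Bmp4 (1.05 ± 0.15), rose. None of the 3 TGF-beta receptor genes rose: Tgfbr1 fell by 0.56, Tgfbr3 is given above, and Tgfbr2 did not pass.

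Defence and stress lists were mixed. Chemokine genes rose in 11 of 24 cases and fell in 7. Cxcl17, made at mucosal surfaces, was at 0.025, 0.062 and 0 CPM at 2 months (0 to 3 reads) and at 5.13, 6.30 and 6.04 at 12 months. The neutrophil attractant gene Cxcl5 went from 4.14, 3.67 and 5.43 CPM to 32.3, 39.7 and 26.9 and the membrane-tethered Cx3cl1 from 4.24, 4.68 and 4.08 to 24.0, 26.5 and 28.1, while the monocyte attractant gene Ccl2 fell from 684, 717 and 770 CPM to 497, 507 and 437. Ceruloplasmin, the copper carrier of plasma and milk, rose from 724, 660 and 721 CPM to 2888, 2814 and 2803 (Cp, 2.02 ± 0.05). Of 37 antioxidant genes 15 rose and 8 fell (5 in edgeR); Gpx2, the glutathione peroxidase of epithelia, went from 1.08, 1.07 and 0.841 CPM to 26.8, 22.2 and 26.1 (4.09 ± 0.14) and Gsta3 rose by 1.86 ± 0.09, but the NRF2 targets Nqo1 (0.06), Txnrd1 (-0.07) and Slc7a11 (0.08) did not pass and Hmox1 fell slightly (-0.28). The genes of the unfolded protein and amino acid responses fell in 19 of 31 cases and rose in 6, with the chaperone gene Hsp90b1 lower (log2 -0.61), the serine synthesis gene Psat1 lower (-0.79) and the glutathione-degrading Chac1 higher (1.17).

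Few respiratory chain and ribosomal protein genes were called, whereas glycolysis, fatty acid and hypoxia genes were called about as often as all genes or more. Of 72 respiratory chain genes 2 rose and 11 fell as deposited, 4 rose and 6 fell under common scaling, 6 rose and 3 fell in edgeR, and 0 rose and 11 fell without replicate 1 of the 2-month group; their log2 changes ran from -0.37 to 0.42. Of 76 cytosolic ribosomal protein genes 9 fell as deposited, 5 under common scaling, 4 in edgeR and 19 without replicate 1 of the 2-month group. In glycolysis 5 of 24 genes rose and 9 fell, led by isoenzyme genes: the muscle enolase gene Eno3 fell from 48.6, 67.2 and 53.5 CPM to 12.6, 10.5 and 13.8, and the aldolase gene Aldoc rose from 2.87, 2.97 and 2.84 CPM to 19.9, 19.5 and 20.6. In fatty acid genes, with 10 rises and 12 falls of 31, Cidea, a lipid droplet protein of the lactating gland and brown fat, went from 0.294, 0.205 and 0.105 CPM to 6.27, 5.48 and 5.84, and the fatty acid transporter gene Cd36 fell from 468, 394 and 364 CPM to 191, 186 and 171. Hypoxia targets rose in 9 of 21 cases and fell in 6, with Ndrg1 going from 45.5, 47.2 and 43.7 CPM to 125, 120 and 129, though Vegfa did not pass (0.18 ± 0.08). Of 28 p53 target genes 7 rose and 9 fell, and Trp53 itself went from 16.5, 18.2 and 17.8 CPM to 14.5, 14.2 and 15.6 (-0.23 ± 0.08), a call that was lost under common scaling. Insc, whose product orients the spindle, had 23, 26 and 31 reads and then 35, 15 and 19, below the filter.

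The age change of WT was compared with that of KO spheres by the interaction, the KO age change minus the WT age change. It passed for 8051 genes (57.7%), 4388 with a higher change in KO (31.4%) and 3663 with a lower one (26.2%). Under common scaling the shares were 28% and 30.4%. The age comparison within KO itself called 67% of genes. Division lists had like medians in both genotypes, though single genes differed: the median of the kinetochore list was -1.41 in WT and -1.34 in KO, that of the kinesin list -1.45 and -1.52 and that of the replication list -0.98 and -0.96. The interaction passed for 9 of 41 kinetochore and 7 of 27 kinesin genes. It passed with a higher change in KO for 13 of 48 replication genes and a lower one for 8, for 8 and 2 of 21 condensin and cohesin genes, and for 6 and 9 of 32 chromatin genes. Epithelial lists differed. The tight junction median was 3.25 in WT and 0.56 in KO, with a lower change in KO for 18 of 19 genes, and the epithelial transcription regulators had medians of 2.36 and 0.82, with a lower change in KO for 24 of 28. Most of these genes still rose in KO: 13 of 19 tight junction genes rose and 0 fell, and 22 of 28 regulators rose and 1 fell. Unlike most of its list, Cldn7 rose in WT (5.21 to 52.9 CPM in group means) and not detectably in KO (6.18 to 6.58, interaction -3.17 ± 0.18). Epcam, which is in neither list, did likewise (53.4 to 407 CPM, and 65.6 to 60.7, interaction -3.04 ± 0.12).

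Muscle, mast cell and endothelial genes changed differently in the genotypes. The muscle list had a median of -2.12 in WT and 0.64 in KO, and the change was higher in KO for 43 of 46 genes. For the mast cell list the medians were -0.97 and 2.39, with 10 of 11 genes higher by the interaction, and for the endothelial list 0.28 and 1.94, with 16 of 17. Imprinted genes were divided: the change of Igf2 differed between genotypes (3.27 ± 0.24, with group means of 41.1 to 7.80 CPM in WT and 14.5 to 29.5 in KO), whereas Meg3 fell in both (16.4 to 3.29 CPM and 15.9 to 2.78, interaction -0.17 ± 0.13, adjusted p = 0.288). Among receptors, Egfr fell in WT and rose in KO (801 to 525 and 678 to 1347 CPM, interaction 1.60 ± 0.07). Fgf10 did the same (7.55 to 2.95 and 6.29 to 31.0 CPM, interaction 3.44 ± 0.11).

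**Figure D5:**
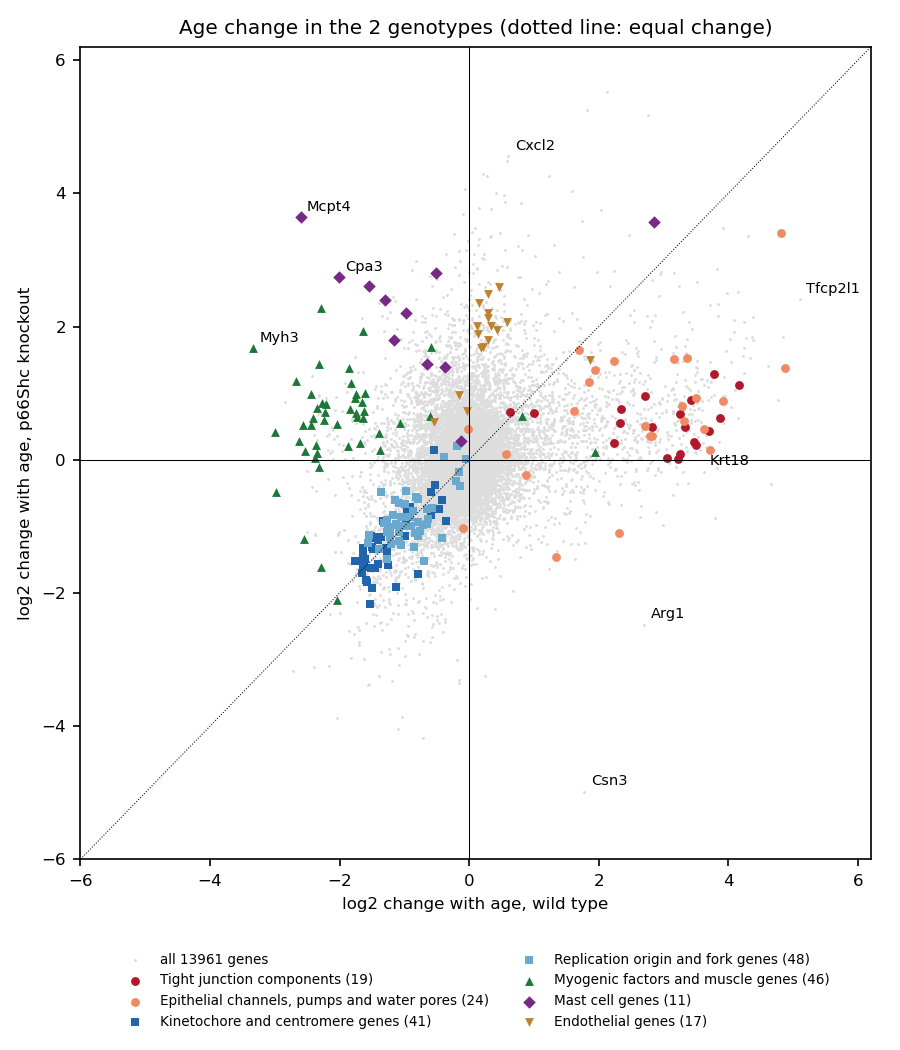
Log2 age change in KO (vertical) against WT (horizontal) for all 13961 genes (grey) and the members of 7 lists, with a dotted line where the changes are equal. Most kinetochore and replication genes lie along the dotted line, most tight junction and channel genes below it at the right, and most muscle, mast cell and endothelial genes above it.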

How the data were processed

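The data are 12 total RNA libraries of mouse mammospheres, of which the 6 WT ones are described. The submitters' processing notes name TopHat2 2.1.0, Bowtie2 2.2.4, HTSeq 0.6.1p1 and the mm10 build, and the sources used here give neither annotation nor strand setting. The deposited signal is CPM scaled by TMM in edgeR, per the file headers, and 100% of values recovered as whole reads within 0.1. Of TMM runs on the 15 combinations of the 4 groups, none that held a WT group gave the deposited factors, so counts are also given after common scaling.

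Each gene whose mean reached 0.5 CPM was tested as log2(CPM + 0.5). The fit in limma 3.58.1 under R 4.3.3 used 4 groups, 12 libraries, 8 residual degrees of freedom and the trend option; age contrasts and their interaction were adjusted by Benjamini-Hochberg and called under 0.05. Errors after ± are SE from the spread shared by the 4 groups, with 3 libraries in each group. The script was tested on simulated data. Alternatives were TMM or median-of-ratios scaling over 12 libraries, pseudocounts of 0.1 and 2, no filter or a mean of 2 CPM, a replicate block, the 6 WT libraries alone, edgeR 4.0.16 and DESeq2 1.42.0 on recovered reads, and each WT library left out. The depth of 31845169 to 58264990 reads sets the floor given with the results.

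The lists and members were chosen with earlier results of these data known. Named genes are the 20 largest called rises and falls, up to 8 called members with the largest change in each list, the 10 largest called interactions in each direction, and Shc1, Insc, Trp53, Cdkn1a, Mki67, Epcam, Krt8, Krt18, Krt5, Krt14, Vim, Esr1, Pgr, Gata3, Notch1, Egfr, Igf2, H19, Myod1, Pax7, Ptprc, Pecam1, Cpa3 and Adipoq; some of these are left out. Named outside this rule, after their values were seen, are Aldh3a1, Aqp5, Atp1b1, Btn1a1, Ccl2, Cd3e, Cdc20, Cdh2, Chrnb1, Cldn7, Col1a1, Col3a1, Csf1r, Csn1s1, Csn2, Dkk2, Errfi1, Esrp1, Esrp2, Ezh1, Ezh2, Fzr1, Gnas, Grb10, Grhl2, Hes1, Hmox1, Hoxb9, Igf1r, Itgb1, Itgb3, Jag1, Kcnq1ot1, Kif23, Krt23, Lalba, Malat1, Mest, Myog, Nipbl, Notch2, Nqo1, Pdgfra, Pds5a, Peg3, Plagl1, Plin2, Postn, Procr, Pttg1, Rapsn, Rbl2, Rbpj, Rrm2b, Slc22a18, Slc7a11, Smc1a, Smc3, Tgfbr1, Tgfbr2, Tgfbr3, Thbs1, Tjp1, Trp63, Trpv6, Txnrd1, Vegfa, Wap, Wapal, Wee1, Wnt5a and Xdh. Promoter windows are from RefSeq (GRCm38.p6).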

Additional observations from a re-analysis of the deposited data

Results flagged for a closer look

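The age change differed between genotypes, by the interaction in limma at an adjusted p under 0.05, for 8051 genes. The values here are the KO age change minus the WT age change, on the log2 scale, and group means are CPM at 2 and then at 12 months. Among genes called with age in WT, the lowest interactions were those of Csn3 (-6.76; 34.7 to 120.2 in WT and 33.3 to 0.583 in KO), Arg1 (-5.18; 8.2 to 56.1 and 19.5 to 3.08), Klhdc7a (-5.02), Ccdc129 (-4.67), Krt7 (-3.96), Sox10 (-3.95; 3.16 to 50.2 and 4.06 to 3.69), Cited4 (-3.88), Krt18 (-3.80; 93.2 to 1150.4 and 135 to 119), Krt8 (-3.73) and Lad1 (-3.68). The casein gene Csn3 and the arginine-degrading enzyme gene Arg1 thus rose in WT and fell in KO.

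The highest were those of the mast cell genes Mcpt4 (6.24; 4.65 to 0.346 in WT and 0.333 to 9.95 in KO), Cpa3 (4.75; 47.7 to 11.5 and 11 to 76.5) and Hdc (4.16), and of the muscle genes Myh3 (5.01; 61.9 to 5.69 and 8.84 to 30.9), Ttn (4.58) and Actn2 (3.85). The serpin genes Serpina3m (3.98), Serpinb2 (3.91) and Serpina3c (3.80) and the chemokine gene Cxcl2 (3.96; 5.01 to 7.88 and 2.90 to 79.8) followed. The 2-month KO libraries already had low mast cell and muscle levels beside those of WT, and what this contributes to the interactions was not tested.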

How the results depend on the processing

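Each alternative kept the counts of genes changed with age, and of interactions, within 1.5 times of those reported. Genes changed with age numbered 7225 to 8142 when a WT library was left out, 7732 with common TMM scaling, 7646 in edgeR, 7749 in DESeq2, 8667 without a filter and 7480 with the 6 WT libraries alone. Under common TMM scaling 89.78% of the calls were kept. Of the called genes 0 changed sign, which says little because this scaling moved a gene's age change by at most 0.063 on the log2 scale. With the replicate block 8453 genes were called; same-numbered WT libraries correlated at 0.2244, -0.0953 and 0.0504, not every library correlated best with its own number, and the numbers are therefore not taken as pairs. Interactions numbered 8165 with common scaling, 8517 with the replicate block and 7549 to 8273 with a WT library left out. Single-gene WT age values were compared for the 435 tested genes that the naming rule gave, and not for genes named outside it. Of these values 6827 kept their call or stayed without one, 101 lost a call and 5 gained one, in 27 genes, and 0 changed direction. The 27 include Trp53, lost in 8 settings that cover each scaling and count tool and every left-out library but replicate 1 of 2 months and replicate 3 of 12 months, and Lyz2, Cd68, Gja1 and Gja5. Genes near the floor of 3 reads, such as Cnn1 and Cxcl17 at 2 months, have fitted changes that depend on the pseudocount.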

Other observations

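The 22 genes with a mean under 0.5 CPM at 2 months and of at least 5 CPM at 12 months in WT include Scnn1b, a sodium channel subunit gene, Slc15a1, a peptide transporter gene, and Pigr, which carries immunoglobulin across epithelium. The calcium channel gene Trpv6 was read at 0.294, 0.349 and 0.273 CPM and then at 6.59, 6.44 and 6.78, and Krt23 at 0.343, 0.103 and 0.294 and then at 6.62, 6.04 and 7.38. In KO spheres the means of Trpv6 were 0.244 and 1.06 CPM, and those of Krt23 0.697 and 1.69. The rest of this set is Aldh3a1, Barx2, Ccdc64b, Cidea, Ckmt1, Cwh43, Cxcl17, Ddo, Fam211b, Ltk, Muc15, Ntng1, Rab17, Rasal1, Zfp185 and the unnamed 4930412O13Rik and C330005M16Rik. They were picked by their values and carry no test.

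Further large rises in WT were read for other genes. Sftpd, the surfactant protein D gene, went from 0.441, 0.513 and 1.09 to 21.3, 21.0 and 24.2, and Gabrp, a GABA receptor subunit gene, from 1.81, 1.40 and 1.18 to 35.5, 32.8 and 33.6. Among the largest falls outside the muscle list were Crispld1, from 161, 155 and 151 CPM to 28.8, 26.6 and 25.6, and the pregnancy glycoprotein gene Psg22, from 12.8, 10.6 and 10.2 to 1.33, 1.25 and 1.2. Psg22 also fell in KO, from a mean of 17.1 to 1.47 CPM.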
